A study of Homo sapiens with 4 samples.

Results

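Tetraspanins are small membrane proteins that cross the lipid bilayer repeatedly and gather integrins, proteases and one another into patches of the cell surface and of endosomes. A subgroup, the TspanC8 tetraspanins, to which TSPAN5 belongs, carries the protease ADAM10 out of the endoplasmic reticulum, and ADAM10 then cleaves Notch receptors, cadherins and other surface proteins. CD9, CD63 and CD81 are used as markers of extracellular vesicles, and CD82 (KAI1) was first described as a suppressor of metastasis in prostate cancer. Here 10 tetraspanin genes were followed: TSPAN5, TSPAN1, TSPAN3, TSPAN4, TSPAN6, CD9, CD63, CD81, CD82 and CD151. TSPAN5 was selected on its signal, which was higher on both arrays with β-TrCP shRNA, and the other 9 were taken for contrast with it, so that the values of the 10 genes in that comparison are a description without a test. They make up 10 of 9193 measured genes and 13 of 22277 probe sets, and all 13 passed the signal filter. Of these genes, 7 had 1 probe set, and TSPAN3, TSPAN4 and TSPAN6 had 2 each.

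The cells were LAPC4, an established androgen-sensitive human prostate cancer line, and 4 Affymetrix U133 arrays were hybridised, 1 for each combination of vector and serum after 72 hours. The shRNA CSS array held cells with an shRNA against both β-TrCP isoforms in 10% charcoal stripped serum, which is depleted of androgens, and the shRNA FCS array held such cells in 10% fetal calf serum with 100 pM methyltrienolone, a synthetic androgen. The control CSS and control FCS arrays held cells that the labels give as infected with GFP, in the same media. All were infected populations rather than clones as far as the sources say, and the sources differ on whether the control carried the vector alone or the uninduced shRNA, so that effects of doxycycline or of the vector cannot be told apart from those of the shRNA. With 1 array per condition no difference between 2 arrays has a replicate check, and the number of arrays limits the precision.

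All values below are normalized log2 signals with a floor of 4.32, and a change is a difference of 2 of them. Beside it stands the local spread, which is 1.48 times the median absolute deviation of the same log2 difference among the 1000 probe sets nearest in mean signal, and which describes how far probe sets of like brightness differed between those 2 arrays. The shRNA CSS array stood apart, with Pearson correlations across probe sets of 0.925 to 0.927 with the other 3 arrays, against 0.979 to 0.989 among these. Every comparison in CSS with the shRNA rests on it. Of the genes the shRNA is directed against, FBXW11 (β-TrCP2) had log2 signals of 4.68 on the shRNA CSS array, 5.02 on shRNA FCS, 8.19 on control CSS and 8.02 on control FCS. BTRC (β-TrCP1) was at the floor on both shRNA arrays, and at 4.64 on control CSS and 4.50 on control FCS. Of 11 luminal prostate markers, 8 were measured and lay above the floor on all 4 arrays. With the shRNA, KRT8, KRT18 and CDH1 were within the local spread in each serum, while KLK2 and KLK3 had changes of -2.41 and -1.37 in CSS and of -1.23 and -0.98 in FCS. HOXB13 and EPCAM were higher in CSS, by 0.63 and 0.26 (local spreads 0.34 and 0.24), and within the spread in FCS. TMPRSS2 had changes of -0.21 in CSS, within its spread of 0.43, and -0.55 in FCS (local spread 0.34). Of the 8, 2 were higher with the shRNA in CSS and 3 in FCS, against 50.5% and 49.9% of all genes. With CSS against FCS, KLK2 and KLK3 changed by 0.70 and 0.73 in control cells (local spreads 0.31 and 0.32). In shRNA cells they changed by -0.48 and 0.34 (local spreads 0.41 and 0.33). Of the 8 luminal markers, 5 were higher in CSS in control cells and 6 in shRNA cells. The cause was not tested. FOLH1 was too dim.

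TSPAN5 had the largest difference of the 10 genes with the shRNA in FCS, and its level was ordered by treatment. Its only probe set had log2 signals of 8.33 on the shRNA CSS array, 7.79 on shRNA FCS, 6.95 on control CSS and 6.13 on control FCS. On the linear scale these are signals of 323, 221, 124 and 69.9. Both shRNA arrays were thus above both control arrays, the trait on which TSPAN5 was selected. Within each cell population the CSS array was above the FCS array. Against control cells in the same serum, TSPAN5 was 2.61-fold higher with the shRNA in CSS (log2 change 1.38, local spread 0.46) and 3.16-fold higher in FCS (1.66, local spread 0.32). These 2 comparisons share no array. With both treatments it was 4.61-fold higher than in control FCS (2.21, local spread 0.52), a change that shares the control FCS array with the one in FCS. TSPAN5 stood at rank 18 from the top of 7624 genes for the shRNA in FCS, 209 of 7128 for the shRNA in CSS and 16 of 7146 for both treatments. At the size of 2-fold higher in both sera there were 22 of 7866 genes, or 0.28%. With the values as deposited, in which the median change of all genes was -0.20 for the shRNA in CSS, the change of TSPAN5 was 0.92 in CSS and 1.71 in FCS.

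**Figure D1:**
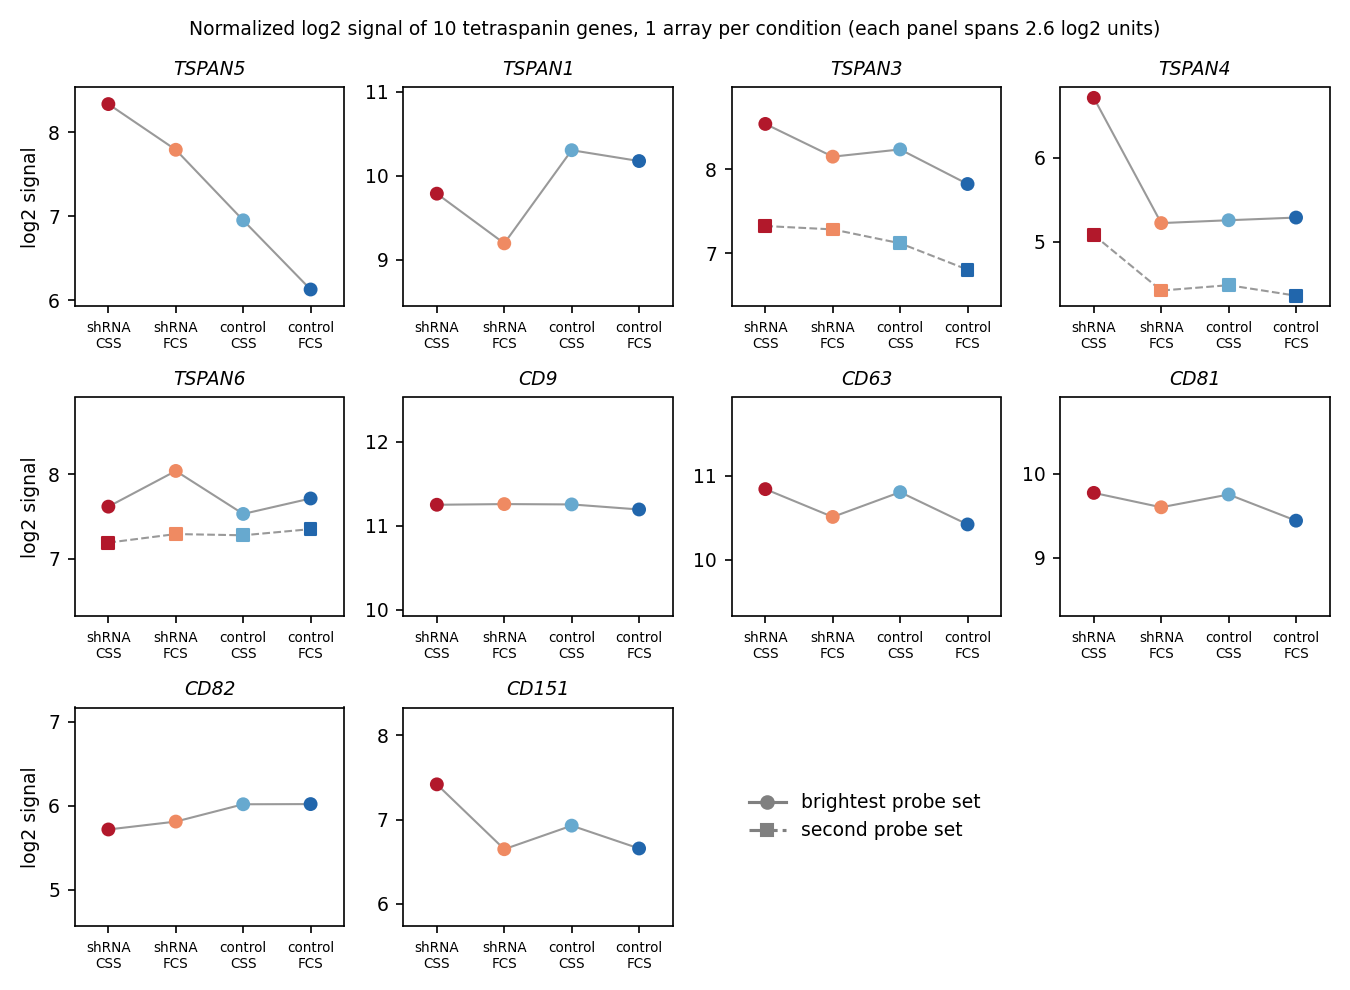
Normalized log2 signal (vertical axis) of the 10 tetraspanin genes on the 4 arrays (horizontal axis), 1 array per condition; circles are the brightest probe set of a gene and squares its second probe set. TSPAN5 lies at 8.33 on shRNA CSS, 7.79 on shRNA FCS, 6.95 on control CSS and 6.13 on control FCS, TSPAN1 is lowest on shRNA FCS at 9.20, TSPAN4 stands out on shRNA CSS at 6.71, and CD9 lies between 11.19 and 11.26 on all 4 arrays.

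The letters before the transcription start of TSPAN5 are shown beside those of TSPAN1, whose change with the shRNA was the lowest of the 10 genes in each serum, because these 2 genes differed in opposite directions. Each is the stretch of 250 bases upstream of the RefSeq start, 5′ to 3′ on the gene's own strand, in build GRCh38.p14. The first lies at chr4:98658612-98658861 on the minus strand and the second at chr1:46174837-46175086 on the plus strand, and capitals mark matches to any of 5 short motifs searched on both strands.
TSPAN5: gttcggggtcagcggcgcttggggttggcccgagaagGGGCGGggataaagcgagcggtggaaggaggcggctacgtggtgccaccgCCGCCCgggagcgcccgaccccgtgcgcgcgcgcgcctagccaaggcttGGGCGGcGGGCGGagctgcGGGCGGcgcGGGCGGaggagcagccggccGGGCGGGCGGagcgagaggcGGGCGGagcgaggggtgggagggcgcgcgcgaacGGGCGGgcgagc
TSPAN1: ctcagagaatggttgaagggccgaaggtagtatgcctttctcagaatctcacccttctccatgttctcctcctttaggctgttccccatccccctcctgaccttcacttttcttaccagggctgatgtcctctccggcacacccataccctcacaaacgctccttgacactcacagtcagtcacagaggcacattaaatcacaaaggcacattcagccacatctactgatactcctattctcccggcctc
The TSPAN5 stretch held 80% G and C and 10 matches to the GC box GGGCGG, of which 2 overlap each other, and none to the other 4 motifs. A GC box was present in 42.3% of 27305 promoters of this length, whose median content of G and C was 58%. The TSPAN1 stretch held 51.2% G and C, and no match to any of the 5 motifs, so that it is printed without capitals. The other 4 motifs, which neither stretch held, were the AhR core GCGTG (31.9% of promoters), the TCF core CTTTGA (11.4%), the RBPJ core TGGGAA (21.1%) and the E-box CACGTG (6.49%). A match is a description of the letters and not a binding site. Of the 10 genes, 7 were matched in the promoter table. TSPAN3, CD81 and CD151 were not.

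TSPAN1, an epithelial tetraspanin, was the only one of the 10 genes that was lower by more than the local spread in both sera. It had log2 signals of 9.79 on the shRNA CSS array, 9.20 on shRNA FCS, 10.31 on control CSS and 10.18 on control FCS. It was 1.43-fold lower with the shRNA in CSS (log2 change -0.52, local spread 0.24) and 1.97-fold lower in FCS (-0.98, local spread 0.27), which fell short of 2-fold. With the values as deposited the changes were -0.66 and -0.97.

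None of the other 9 genes was at least 2-fold higher with the shRNA in both sera, and none was at least 2-fold lower in either. In FCS their changes lay between -0.98 and 0.33, and 8 of the 9 lay within the local spread, as did 5402 of 7991 genes. The median of the 9 was 0.04 in CSS and 0.06 in FCS, against 0.01 and 0.00 over all genes. The background for at least 2-fold higher was 7.73% of 8730 genes in CSS, where the array that stood apart is used, and 0.801% of 7991 in FCS, and for at least 2-fold lower it was 6.72% and 0.4%. CD9, which binds the immunoglobulin-like EWI proteins, had log2 signals of 11.25 on shRNA CSS, 11.26 on shRNA FCS, 11.25 on control CSS and 11.19 on control FCS, a range narrower than its local spread of 0.17 to 0.21 in any comparison. CD63, a tetraspanin of late endosomes and of vesicles, had changes with the shRNA of 0.04 in CSS and 0.09 in FCS. CD81, which is also known as an entry factor for hepatitis C virus, had changes of 0.02 and 0.16. These 3 vesicle markers thus stayed within the local spread with the shRNA in each serum, although with arrays scaled to the same median instead, CD9 and CD63 were at 0.28 and 0.23 in CSS. CD82 was dim, with log2 signals of 5.72 on shRNA CSS, 5.81 on shRNA FCS, 6.02 on control CSS and 6.02 on control FCS. Its changes of -0.30 and -0.21 were smaller than the local spreads of 0.83 and 0.25. The probe set of CD82, like the brighter one of TSPAN4, is of a kind (suffix x_at) whose probes can bind other transcripts.

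**Figure D2:**
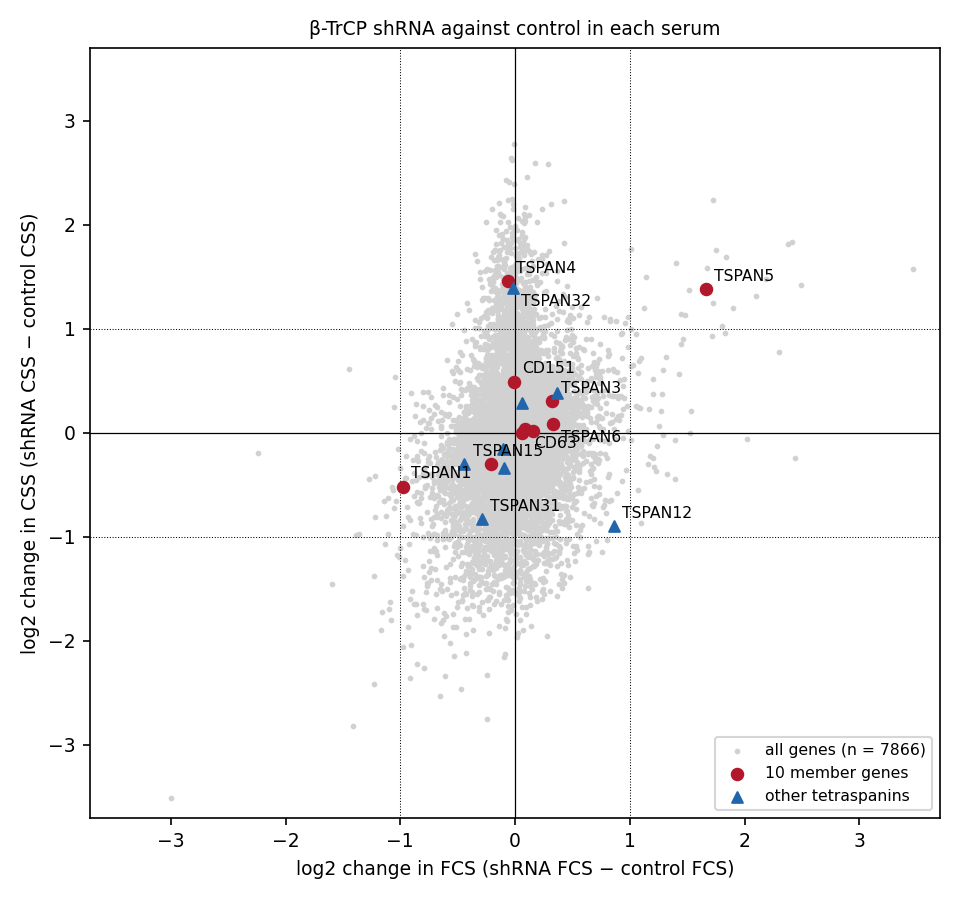
Log2 change with β-TrCP shRNA in FCS (horizontal axis) against that in CSS (vertical axis) for 7866 genes in grey, the 10 tetraspanin genes (red circles) and other tetraspanins (blue triangles); dotted lines mark 2-fold and the 2 axes share no array. TSPAN5 lies at 1.66 and 1.38, TSPAN1 at -0.98 and -0.52, and TSPAN4 at -0.07 and 1.46; the value of TSPAN12 on the vertical axis is set against the floor.

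TSPAN3 and TSPAN6 were each measured by 2 probe sets. The brighter probe set of TSPAN3 had log2 signals of 8.54 on shRNA CSS, 8.15 on shRNA FCS, 8.23 on control CSS and 7.82 on control FCS. Its changes with the shRNA were 0.30 in CSS and 0.33 in FCS, and those of its dimmer probe set were 0.21 and 0.48, so that 3 of the 4 lay within the local spread. For TSPAN6, whose gene lies on the X chromosome, the brighter probe set gave 0.09 in CSS and 0.33 in FCS and the dimmer one -0.09 and -0.06, all within the local spread. With the values as deposited, the brighter probe sets of TSPAN3 and TSPAN6 were at -0.11 and -0.43 with the shRNA in CSS, so that their direction there depends on the scaling.

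TSPAN4, a tetraspanin of migrasomes (vesicles left behind by migrating cells), and CD151, a partner of laminin-binding integrins, were high on the shRNA CSS array. The brighter probe set of TSPAN4 had log2 signals of 6.71 on shRNA CSS, 5.22 on shRNA FCS, 5.26 on control CSS and 5.29 on control FCS. Its dimmer probe set had 5.08, 4.42, 4.48 and 4.36 on the same arrays in that order. The 3 other arrays thus differed by 0.07 and 0.12 at most, and the shRNA CSS array lay above them in both probe sets, by a change with the shRNA in CSS of 1.46 (local spread 0.92) and of 0.60 (local spread 0.88). CD151 had log2 signals of 7.42 on shRNA CSS, 6.65 on shRNA FCS, 6.93 on control CSS and 6.66 on control FCS. Its change with the shRNA was 0.49 in CSS, within its local spread of 0.52, and -0.01 in FCS, and with the values as deposited it was -0.04 in CSS. On this same array the 5 measured of 7 fibroblast markers had a summed linear signal of 178, against 115 on shRNA FCS, 113 on control CSS and 118 on control FCS. COL1A2, DCN and PDGFRB passed the filter through the shRNA CSS array alone, so that the filter itself fixed their being above the floor only there, and COL3A1 and LUM were under it on all 4 arrays. Over all genes, 1145 were at the floor on shRNA CSS, 1373 on shRNA FCS, 1383 on control CSS and 1398 on control FCS. Of the leukocyte markers, CD14 and TYROBP likewise passed through that array alone, and PTPRC was under the filter. The part of these values in the levels of TSPAN4 and CD151 was not tested.

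Serum, the factor on which the genes were not chosen, was examined in the 2 pairs of arrays that differ in the medium alone. These are the same arrays on which TSPAN5 was selected. Its change in control cells shares the control FCS array with its shRNA change in FCS, so that it is not independent of the selection. Since the androgen was added to FCS only, stripped serum and the lack of added androgen cannot be told apart. TSPAN5 was 1.46-fold higher in CSS than in FCS in shRNA cells (log2 change 0.54, local spread 0.49) and 1.77-fold higher in control cells (0.82, local spread 0.29). In control cells this was rank 43 from the top of 7611 genes. With the values as deposited the change was 0.10 in shRNA cells and 0.89 in control cells. Of the 10 genes, 6 were higher in CSS in both cell populations, against 28.9% of 7866 genes: TSPAN5, TSPAN1, TSPAN3, CD63, CD81 and CD151. Only 4 of these were so with the values as deposited, TSPAN3 and CD81 being at -0.04 each in shRNA cells. The median change of the 10 genes was 0.36 in shRNA cells and 0.20 in control cells, against 0.03 and 0.02 over all genes. TSPAN6 was the lowest of the 10 with CSS, at -0.42 in shRNA cells and -0.18 in control cells.

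CD63 had log2 signals of 10.84 on shRNA CSS, 10.51 on shRNA FCS, 10.81 on control CSS and 10.42 on control FCS. It was higher in CSS by 0.33 in shRNA cells and 0.38 in control cells, each above the local spread of 0.20. CD81 had 9.77 on shRNA CSS, 9.60 on shRNA FCS, 9.75 on control CSS and 9.44 on control FCS, with changes of 0.17 in shRNA cells, within its local spread of 0.27, and 0.31 in control cells, where the spread was 0.29. The brighter probe set of TSPAN3 likewise had changes of 0.39 in shRNA cells and 0.41 in control cells, and its dimmer one of 0.04 and 0.31. The change of TSPAN1 was 0.59 in shRNA cells and 0.13 in control cells, the second within its local spread of 0.27.

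When the 4 arrays were fitted together with 1 term for serum and 1 for the shRNA (limma over 7965 genes, Benjamini-Hochberg adjustment), CD63 and TSPAN1 rose in CSS, and 5 of the 10 genes had an unadjusted p under 0.05, as did 13.2% of all genes tested. The main effects of CD63 and TSPAN1 were 0.36 (SE 0.09, adjusted p 0.00442) and 0.36 (SE 0.10, adjusted p 0.0207) in this limma fit. The background was 238 genes past the threshold in either direction, or 2.99%, and 1.38% were higher in CSS. TSPAN5 had a larger effect of 0.68 with a larger SE of 0.26 and did not pass (limma, adjusted p 0.142), nor did TSPAN3 (0.40, adjusted p 0.233), CD81 (0.24, adjusted p 0.266) or the other 5. In this additive model 1 residual degree of freedom remains and the SE comes from the trend of variance on signal, which is small for bright genes such as CD63 and TSPAN1. Without that trend no gene passed for either factor, and neither CD63 nor TSPAN1 passed with the values as deposited or with medians equalised.

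**Figure D3:**
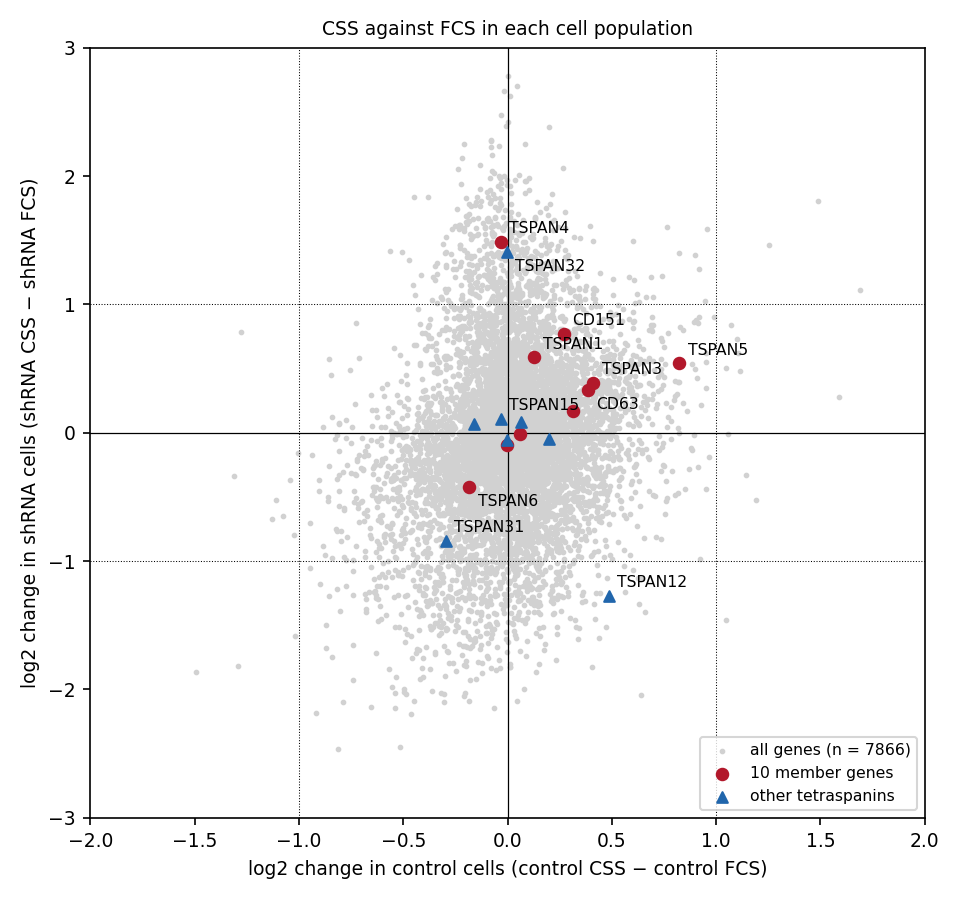
Log2 change with CSS in control cells (horizontal axis) against that in shRNA cells (vertical axis) for 7866 genes in grey, the 10 tetraspanin genes (red circles) and other tetraspanins (blue triangles); dotted lines mark 2-fold and the 2 axes share no array. TSPAN5 lies at 0.82 and 0.54, TSPAN3 at 0.41 and 0.39, CD63 at 0.38 and 0.33, and TSPAN4 at -0.03 and 1.49; the vertical value of TSPAN12 is set against the floor.

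The remaining tetraspanins were taken from a list of the family. Of 23 such genes, 16 were on the array, 10 passed the filter and 8 had a fold, UPK1A and PRPH2 being at the floor on all 4 arrays. TSPAN2, TSPAN7, TSPAN8, CD37, CD53 and UPK1B were under the filter on all 4 arrays. CD37 and CD53 are tetraspanins of leukocytes. None of the 8 passed the test for the shRNA in the additive limma model, in which 4.67% of genes did (1.93% higher, 2.74% lower), and 1 of them, TSPAN32, had an unadjusted p under 0.05. None passed for serum, again with 1 (TSPAN32) under 0.05 before adjustment. The share of all genes under 0.05 before adjustment was 13% for the shRNA and 13.2% for serum. Their median change with the shRNA was -0.23 in CSS and -0.06 in FCS. TSPAN13, the brightest of them, had log2 signals of 10.42 on shRNA CSS, 10.36 on shRNA FCS, 10.14 on control CSS and 10.29 on control FCS. The brighter probe set of TSPAN31 was lowest on shRNA CSS, with 4.75, 5.59 on shRNA FCS, 5.58 on control CSS and 5.87 on control FCS, and its other probe set was at the floor on shRNA CSS. TSPAN9 and ROM1, a photoreceptor tetraspanin, had changes of -0.34 to -0.10 with the shRNA in their brightest probe sets.

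TSPAN12, which takes part in Norrin signalling in the retina, had log2 signals of 5.59 on shRNA FCS, 5.22 on control CSS and 4.73 on control FCS, and was at the floor on shRNA CSS. It was thus 1.81-fold higher with the shRNA in FCS (0.86, local spread 0.19). In CSS the change was -0.90 when set against the floor, -0.82 with the values as deposited and -0.52 with equal medians, all within the local spread of 0.98. TSPAN32, a tetraspanin of blood cells whose probe set has the suffix x_at, had 5.92 on shRNA CSS and between 4.51 and 4.52 on the other 3 arrays.

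Among TspanC8 tetraspanins, 3 of 6 were measured, namely TSPAN5, TSPAN14 and TSPAN15. TSPAN14, which like TSPAN5 serves ADAM10 on its way to the surface, had log2 signals of 7.63 on shRNA CSS, 7.55 on shRNA FCS, 7.25 on control CSS and 7.18 on control FCS. Its changes with the shRNA were 0.38 in CSS and 0.37 in FCS, or -0.14 and 0.37 with the values as deposited. TSPAN15 had 7.04, 6.93, 7.34 and 7.37 on these arrays in the same order, with changes of -0.30 in CSS and -0.44 in FCS. Neither TSPAN14 (limma, adjusted p 0.565) nor TSPAN15 (limma, adjusted p 0.645) passed the test for the shRNA.

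ADAM10, the protease that TspanC8 proteins carry, was lower on both shRNA arrays. Its brightest probe set had log2 signals of 7.43 on shRNA CSS, 7.77 on shRNA FCS, 8.01 on control CSS and 8.30 on control FCS. The changes with the shRNA were -0.58 in CSS (local spread 0.40) and -0.53 in FCS (local spread 0.34), opposite in sign to those of TSPAN5. Its 2 other probe sets had changes of -0.20 and -0.91 in CSS and of -0.08 and -0.42 in FCS. In the additive model the effect of the shRNA on ADAM10 was -0.56 and did not pass (limma, adjusted p 0.0782). ADAM17, a related sheddase, had changes of 0.39 in CSS and 0.26 in FCS in its brightest probe set, and the other 2 gave -0.34 to 0.47. Of 22 measured genes in a list of 30, holding ADAM10, ADAM17 and ADAM10 substrates, 15 were higher with the shRNA in each serum, with medians of 0.24 in CSS and 0.07 in FCS. Over all genes 50.5% were higher in CSS and 49.9% in FCS. In the limma test for the shRNA, DSG2 (desmoglein) and EFNA1 (an ephrin) passed as higher, by 0.45 and 0.38. None of the 22 passed as lower, although 7 were lower in each serum. Over all genes, 1.93% passed as higher and 2.74% as lower for the shRNA, and 1.38% as higher for serum. For serum, ERBB2, a receptor tyrosine kinase, rose by 0.81 in CSS (limma, adjusted p 0.000117), and APLP2 and EFNA1 rose by 0.38 each. Of these 5 calls, those of DSG2 and of ERBB2 passed with equal medians and none passed with the values as deposited. The call of APLP2 rests on its brightest probe set, of the x_at kind. Its other probe sets had changes with CSS of -0.09 to 0.53 in control cells and of -0.05 to 0.26 in shRNA cells, so that not all of them rose. NECTIN1, a cell adhesion gene, had 6.13 on the shRNA CSS array and between 4.58 and 4.78 on the other 3. CDH2 (N-cadherin) had shRNA changes of 1.05 in CSS, within its local spread of 1.06, and -0.06 in FCS. FAT1, a large protocadherin, had changes of 0.22 in CSS and 0.94 in FCS.

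Notch receptors, which ADAM10 cleaves, and other genes of the pathway were read beside ADAM10. The list holds receptors, ligands and cofactors as well as targets, so that its counts do not measure that cleavage. Of 27 listed genes, 16 were measured. With the shRNA 10 of 15 with a fold were higher in CSS (median 0.14) and 8 of 13 in FCS (median 0.10). Over all genes 50.5% were higher in CSS and 49.9% in FCS. HEY1 and DTX4 had a fold in CSS alone. They passed the filter through the shRNA CSS array only, so that the filter itself fixed their being higher there. RBPJ, the DNA-binding factor of the pathway, fell with the shRNA (limma, -0.54, adjusted p 0.0193), with changes of -0.58 in CSS and -0.50 in FCS in its brighter probe set, of the x_at kind, and -1.69 and -0.13 in the other. The call of RBPJ was lost with the values as deposited and with equal medians. HES1, a target of Notch, had changes of 0.18 in CSS and 0.61 in FCS, or -0.37 and 0.66 with the values as deposited. The receptor gene NOTCH1 was at 0.49 and 0.26 and the ligand gene JAG2 at 0.55 and 0.35, none of them past the test. HEYL, another target, had 7.20 on shRNA CSS and between 5.11 and 5.20 on the other 3 arrays. None of the 13 genes tested passed for serum (limma), and 3 had an unadjusted p under 0.05, as did 13.2% of all genes tested. For the shRNA, 2.74% of all genes passed as lower.

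Of 23 genes whose proteins join tetraspanins at the membrane, 18 were measured. CD47, an integrin-associated protein that binds SIRPα on macrophages, had log2 signals of 10.61 on shRNA CSS, 10.67 on shRNA FCS, 9.50 on control CSS and 9.69 on control FCS. It rose with the shRNA by 1.05 (SE 0.10, limma, adjusted p 1.78e-23), and it passed also with the values as deposited (0.98, limma, adjusted p 2.01e-07). Without the trend of variance on signal CD47 did not pass, as no gene did. The size of these p-values rests on that trend, since 1 residual degree of freedom remains and no condition has a replicate. Its 2 brighter probe sets had changes of 1.11 and 0.98 in CSS and of 0.98 and 0.89 in FCS, and its dimmest of -0.22 and 0.44. SLC3A2, the heavy chain of an amino acid transporter, rose by 0.40 (limma, adjusted p 0.0137), a call lost under both other scalings. ITGA6, a chain of laminin-binding integrins, was lower in both sera, with changes of -0.70 in CSS (local spread 0.53) and -0.69 in FCS (local spread 0.31), but did not pass (limma, adjusted p 0.288). ITGA5, a chain of the fibronectin receptor, and ICAM1, an adhesion molecule, were high on shRNA CSS alone, with changes of 1.05 and 0.84 in CSS and of 0.03 and -0.05 in FCS. None of the 16 tested genes passed for serum (limma), 5 being under 0.05 before adjustment, as were 13.2% of all genes tested. For the shRNA, 1.93% of all genes passed as higher.

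Genes of vesicle formation were mixed. Of 18 measured genes in a list of 21, 8 were higher and 10 lower with the shRNA in CSS, and 7 higher and 11 lower in FCS. Over all genes 50.5% were higher in CSS and 49.9% in FCS. LAMP2, a lysosomal membrane protein, fell by 1.22 (limma, adjusted p 0.0223) and VAMP7, a membrane fusion protein of late endosomes, fell by 1.01 (limma, adjusted p 0.0167). Of the 3 probe sets of LAMP2, the brightest and the dimmest were lower (-1.64 and -1.43 in CSS, -0.80 and -0.54 in FCS), while the third was higher, by 0.30 and 0.61. Both calls were lost with the values as deposited. The share of all genes that passed as lower for the shRNA was 2.74%. FLOT2, a raft protein, and STEAP3, a metalloreductase, were at 0.77 and 0.86 in CSS and at 0.20 and 0.38 in FCS, and HGS, a sorting protein of endosomes, was at -0.88 and -0.08, none past the test. For serum none of the 18 passed (limma), with 3 under 0.05 before adjustment, as were 13.2% of all genes tested.

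**Figure D4:**
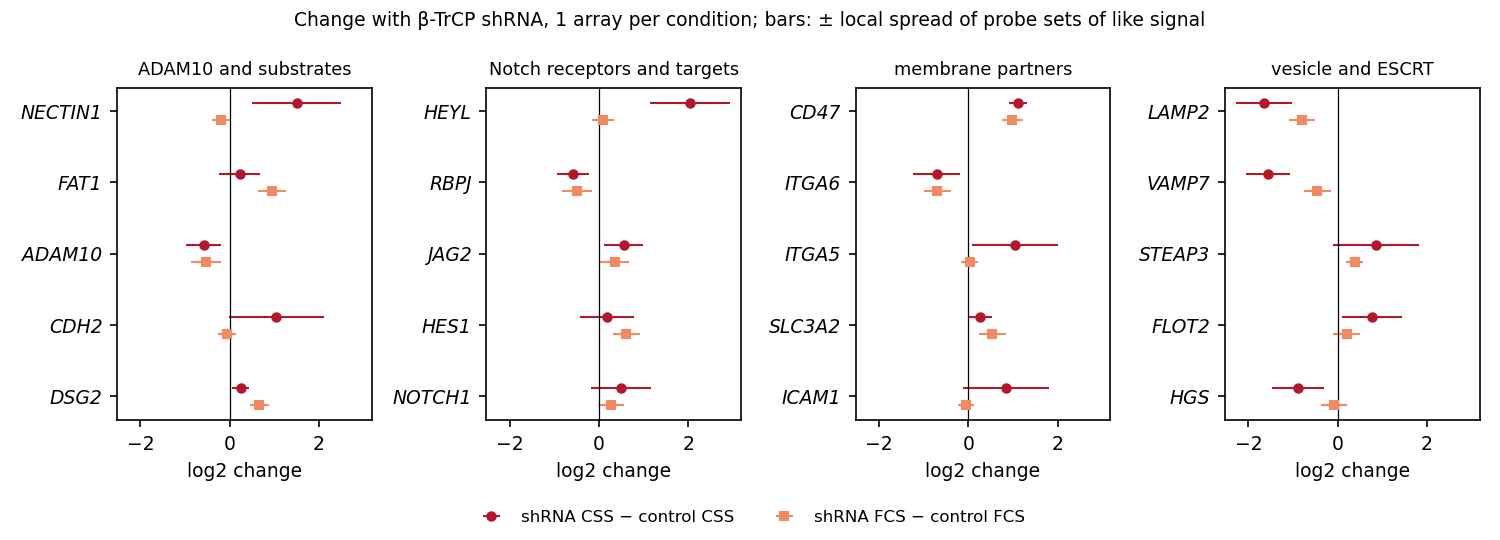
Log2 change with β-TrCP shRNA in CSS (red circles) and in FCS (orange squares) for the 5 genes of each list with the largest mean change among those above the floor on all 4 arrays; bars show the local spread, not a replicate error. CD47 lies at 1.11 and 0.98 and ADAM10 at -0.58 and -0.53, while NECTIN1, HEYL and ITGA5 are away from 0 in CSS alone.

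The genes whose profile over the 4 arrays was most like that of TSPAN5 were ANXA2, S100A10, ANXA2P2, ADCY2, AHR and ROBO1. Likeness was the Euclidean distance between log2 profiles centred on their own mean, over 7678 genes and 4 arrays, and it ranged from 0.28 for ANXA2 to 0.53 for ROBO1. ANXA2P2 is a pseudogene of ANXA2, so that its probe set can bind the transcript of ANXA2. ANXA2, a phospholipid-binding protein, had changes with the shRNA of 1.76 in CSS and 1.75 in FCS, and with CSS of 0.65 in shRNA cells and also 0.65 in control cells. S100A10, its partner at the membrane, had changes of 1.59 and 1.67 with the shRNA, and of 0.90 and 0.99 with CSS. AHR, a ligand-activated transcription factor, and ROBO1, a receptor for Slit proteins, had changes of 1.24 and 0.94 with the shRNA in CSS and of 1.72 and 1.71 in FCS. In contrast to TSPAN5 they were not higher in CSS than in FCS in shRNA cells (-0.04 and -0.13). The same 6 genes were nearest under either other scaling (deposited values, equal medians). The nearest tetraspanin was TSPAN32, at rank 365 with a distance of 1.19, followed by TSPAN4 at rank 492 and TSPAN3 at rank 606. TSPAN1 was at rank 6908.

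**Figure D5:**
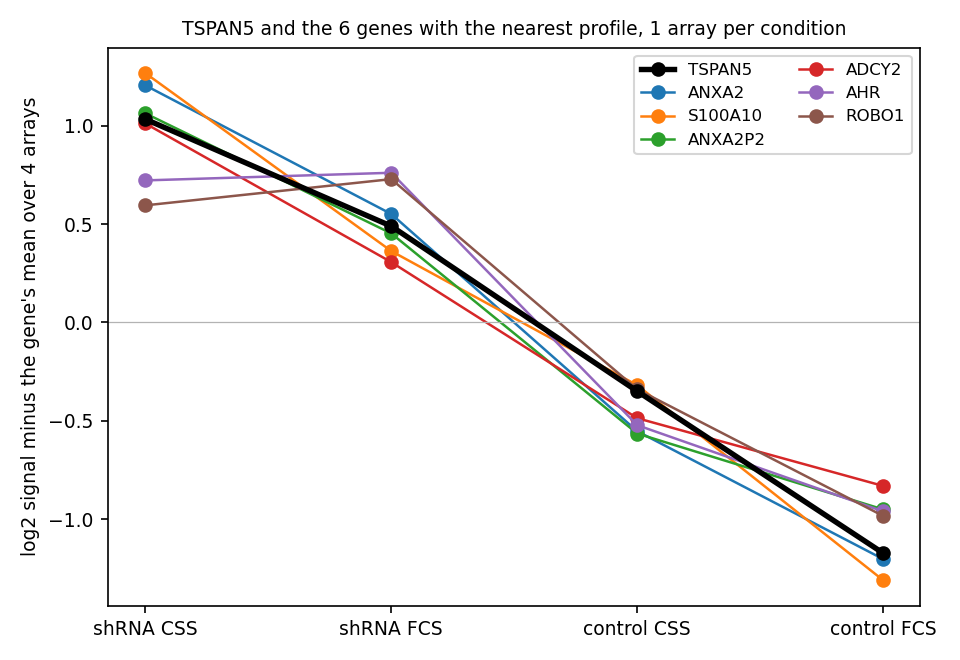
Log2 signal minus the gene's mean over the 4 arrays (vertical axis) on each array (horizontal axis) for TSPAN5 (thick black line) and its 6 nearest genes. All 7 genes are higher on both shRNA arrays than on both control arrays, which follows from how TSPAN5 and the genes nearest to it were chosen. AHR and ROBO1 differ from the others in being level or lower on shRNA CSS against shRNA FCS.

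The shRNA change in CSS minus that in FCS, which is the departure from the sum of the 2 single log2 changes, was -0.28 for TSPAN5, within the local spread of 0.46 in CSS. It was -0.79 with the values as deposited and -0.49 with equal medians, both beyond that spread, so that its size depends on the scaling. For TSPAN1 the difference was 0.46, the shRNA change being nearer 0 in CSS. This was beyond its local spreads of 0.24 in CSS and 0.27 in FCS, as were 0.31 with the values as deposited and 0.61 with equal medians. The differences were between -0.24 and -0.02 for the brightest probe sets of TSPAN3, TSPAN6, CD9, CD63, CD81 and CD82, 0.50 for CD151 and 1.52 for the brighter probe set of TSPAN4. With the values as deposited they were -0.76 for TSPAN6, -0.44 for TSPAN3 and -0.06 for CD151. None of these differences could be tested, since the additive model has no term for them. With infinite prior degrees of freedom the SE of a gene comes from the trend and not from its own departure. The difference of 0.46 for TSPAN1 thus did not set its SE of 0.10 in the test for serum.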

How the data were processed

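Total RNA of LAPC4 cells was hybridised to Affymetrix U133 arrays, 1 array in each of 4 conditions, which were assigned from the sample labels. The deposited values are log2 signals of 22277 probe sets. By the methods of the authors, MAS5 signals present and at least 20 on an array were log2 transformed and quantile normalized, and MAS5 is also named in the processing notes. Present calls were not used here, and the distributions of the 4 arrays differ. Whether the values are unchanged MAS5 signals was not tested, and the floor of 20 (log2 4.32) is read on their scale, whose lowest value is 3.17.

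The 15678 probe sets that reached 20 on any array were quantile normalized and set to a floor of 20. The brightest probe set stood for a gene. The annotation names 1 gene for 19064 probe sets. Probe sets with several genes (1043) or none (2108) and 62 controls were left out. Where 1 of the arrays compared was at the floor a change is set against it, and where both were no change is given.

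Main effects were tested with limma 3.58.1 in R 4.3.3 on genes above the floor on at least 2 arrays, with Benjamini-Hochberg adjusted p-values at 0.05. The prior degrees of freedom were infinite. Tested on simulated data of 7965 genes for serum, the fit recovered 55% of 100 genes set to 2-fold and 96% of 100 set to 4-fold, with 20 false calls. The simulated noise was normal, drawn from the variance trend of this same fit and alike on all 4 arrays. It held no shRNA effect, no departure from additivity and no array that stands apart as shRNA CSS does. These figures therefore do not show how often calls in the real data are false. Python 3.11.15 served for the rest. The genes, lists and tests were chosen with earlier results of these data known. Named are all measured tetraspanins, of each list the 5 genes whose mean shRNA change was largest, genes of a list past the test, which were named after their values were seen, and the 6 genes nearest to TSPAN5. Promoter sequences are from RefSeq (GRCh38.p14). Some markers are not reported here. Alternatives were the values as deposited, equal medians of the arrays, another floor (none, 100), another filter (none, 100), probe set means, a 1.5-fold threshold, normalization without the shRNA CSS array, and limma without a trend.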

Additional observations from a re-analysis of the deposited data

Results flagged for a closer look

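For 3 of 18 tetraspanins with a value in both sera, or 16.7%, the change with β-TrCP shRNA had opposite signs in the 2 sera, and the changes differed by more than the wider local spread. This difference was not tested, since each condition has 1 array. The shRNA change of TSPAN4 was 1.46 in CSS and -0.07 in FCS, a difference of 1.52 in its brighter probe set. In its dimmer one the changes were 0.60 and 0.06, of the same sign, and their difference of 0.54 was within the local spread of 0.88. That of TSPAN32 was 1.40 in CSS and -0.02 in FCS, a difference of 1.41. That of TSPAN12 was -0.90 in CSS, set against the floor, and 0.86 in FCS, a difference of -1.76. In CSS it was -0.82 with the values as deposited and -0.52 with equal medians. Over 7866 genes, 43.3% had opposite signs, and 18.0% also differed by more than the wider local spread, so that the share among tetraspanins was near that of all genes. All 3 differences rest on the shRNA CSS array, which stood apart from the others.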

How the results depend on the processing

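The direction of all 4 TSPAN5 changes was the same under every alternative run. Its changes that moved by more than the local spread were that with the shRNA in CSS, 0.92 on the deposited values, and, under a floor of 100, that with the shRNA in FCS (1.15) and that with CSS in control cells (0.31). For the last 2, control FCS is then raised to the floor. Without the shRNA CSS array in the normalization, TSPAN5 had changes of 1.69 with the shRNA in FCS and 0.86 with CSS in control cells. The count of the other 9 genes at least 2-fold higher with the shRNA in both sera stayed 0, also at 1.5-fold. The count of the 10 genes past the test for serum was 0 in place of 2 without the trend, on the deposited values and with equal medians, and 238 genes in all became 0, 27 and 92; 372 genes past the test for the shRNA became 0, 51 and 167. The count of other tetraspanins past the test for the shRNA was 0 in each setting. Of 256 alternative values of the other 9 genes, 8 moved by more than the local spread, and 1 reversed a value that lay beyond it. The reversed value was TSPAN3 with CSS in shRNA cells, -0.041 with the values as deposited. Many of the 256 could not move. None of the 9 genes was at the floor, so that the 36 values without a floor were fixed. Probe set means cannot change a gene with 1 probe set. The values as deposited and equal medians gave 36 values each. The sign differed in 18 of the 256, of which 10 were with the values as deposited, 6 with equal medians and 2 with probe set means, and 17 of the 18 were within the local spread as reported, such as the shRNA changes in CSS of TSPAN3, TSPAN6 and CD151. The cause of these changes was not tested. No paired analysis was possible because each condition has 1 array and the labels give no replicate numbers. Dim genes such as CD82, TSPAN4 and TSPAN12 lie near the floor, which limits what can be said of them.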
